A study of Mus musculus with 6 samples.

Results

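The carboxylesterase genes Ces1c, Ces1d, Ces1e, Ces1f, Ces1g, Ces2a, Ces2b, Ces2c, Ces2e and Ces2g were described in colon epithelial cells. They were taken by name from a table of 28500 genes, 10 of 10 were present, and all 10 passed the filter on low counts. Ces1c passed it through the libraries of 1 genotype alone. The members were chosen by name with the genotype difference in these 6 libraries in view, among it a lower Ces2a, so the difference between genotypes is described here for the members and is no independent test of them. Carboxylesterases are serine hydrolases, mostly held in the lumen of the endoplasmic reticulum, that cleave ester, amide and thioester bonds of drugs, toxins and lipids. In mice both families have expanded into tandem gene clusters. Ces1 enzymes are best known from liver, fat and plasma, and Ces2 enzymes are the main carboxylesterases of the intestine, where they act on ester prodrugs and on acylglycerols.

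Messenger RNA was sequenced from 3 Ube2f_flox mice, which the labels call wild type and which carry the floxed allele without its deletion, and 3 Ube2f_dIEC mice, in which Ube2f is deleted in intestinal epithelial cells. Ube2f encodes an E2 enzyme that passes the ubiquitin-like protein NEDD8 to cullins. All 6 animals were labelled as males of 8 weeks with normal drinking water and no drug. The labels do not name the driver of the deletion, no group with the driver alone was used, and cells were released from opened colon with EDTA without sorting. Libraries held 55971362 to 77524693 counts, and 3 counts, taken as the floor of detection, corresponded to 0.0387 to 0.0536 CPM. Levels are given as CPM, a count relative to its TMM-scaled library size, and, where genes are compared with each other, as the authors' FPKM, which also divides by gene length. A positive log2 fold change means a higher level in Ube2f_dIEC, and SE is its standard error.

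Ube2f itself stood at 34.0, 42.1 and 32.1 CPM in Ube2f_flox replicates 1 to 3 and at 17.2, 18.0 and 21.0 CPM in Ube2f_dIEC replicates 1 to 3. The groups did not overlap. Xist, transcribed from the inactive X chromosome, was at 494 CPM in the library labelled Ube2f_dIEC replicate 1 and male, and at most at 1.33 CPM elsewhere, so the differences of the members are also given without it. Summed over the 11 absorptive colonocyte markers measured, the level was 25312 to 27359 CPM in Ube2f_flox and 20348 to 24745 CPM in Ube2f_dIEC, without overlap under TMM. Library totals were not tried for the marker sums. Singly, 4 of the 11 absorptive markers lay below in all 3 Ube2f_dIEC libraries, against 6.9% of all genes. Summed goblet markers (9 of 9 measured) lay at 9450 to 11222 against 16118 to 16590.2 CPM. Taken singly, 6 goblet markers had a positive log2 fold change and 3 a negative one. Summed proliferation genes (12 of 12) lay at 413 to 656 against 640 to 742 CPM, with overlap. Singly, all 12 had a positive log2 fold change. Of the 12, 8 lay above in all 3 Ube2f_dIEC libraries, against 7.26% of all genes, and 0 below. In bulk RNA, fewer cells of a type and less RNA per cell cannot be told apart, and the part of these shifts in the results below was not tested.

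Per length, Ces2c and Ces2e were the leading carboxylesterases of these cells. Ces2c, a hydrolase of drugs and acylglycerols, stood at 149 ± 7.05 FPKM in Ube2f_flox and 137 ± 7.50 FPKM in Ube2f_dIEC (mean ± SD, n = 3). Ces2e followed at 129 ± 7.03 and 117 ± 10.1 FPKM, below Ces2c in 6 of 6 libraries. Ces1g, a Ces1 enzyme known from liver lipid metabolism, came next at 63.0 ± 18.9 and 73.5 ± 4.12 FPKM. Ces2a lay at 48.8 ± 11.6 and 31.9 ± 4.68 FPKM. Its range overlapped that of Ces1g in Ube2f_flox, where Ces1g was the higher in 2 of 3 libraries, and not in Ube2f_dIEC. Ces1d, the triacylglycerol hydrolase of liver and fat, and its relative Ces1f could not be ordered, at 28.8 ± 4.20 and 24.5 ± 13.6 FPKM in Ube2f_flox, with Ces1d the higher in 3 of 6 libraries. Ces1e (egasyn, which holds beta-glucuronidase in the endoplasmic reticulum), Ces2g and Ces2b were at 7.19 ± 0.832, 4.98 ± 0.417 and 3.76 ± 0.554 FPKM in Ube2f_flox. Ces1c, a secreted esterase of mouse plasma, was last in Ube2f_flox and overlapped Ces2b in Ube2f_dIEC.

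Summed FPKM was 331 to 339 over the 5 Ces2 members in Ube2f_flox and 273 to 316 in Ube2f_dIEC, and 101 to 162 against 129 to 147 over the 5 Ces1 members. The Ces2 sum therefore exceeded the Ces1 sum in every library. Within the Ces2 sum, Ces2c made up 46.3, 43.2 and 43.7% in Ube2f_flox and 48.3, 45.5 and 46.1% in Ube2f_dIEC, and Ces2e 36.0 to 41.4% over the 6 libraries. Ces1g made up 47.9 to 57.4% of the Ces1 sum.

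**Figure D1:**
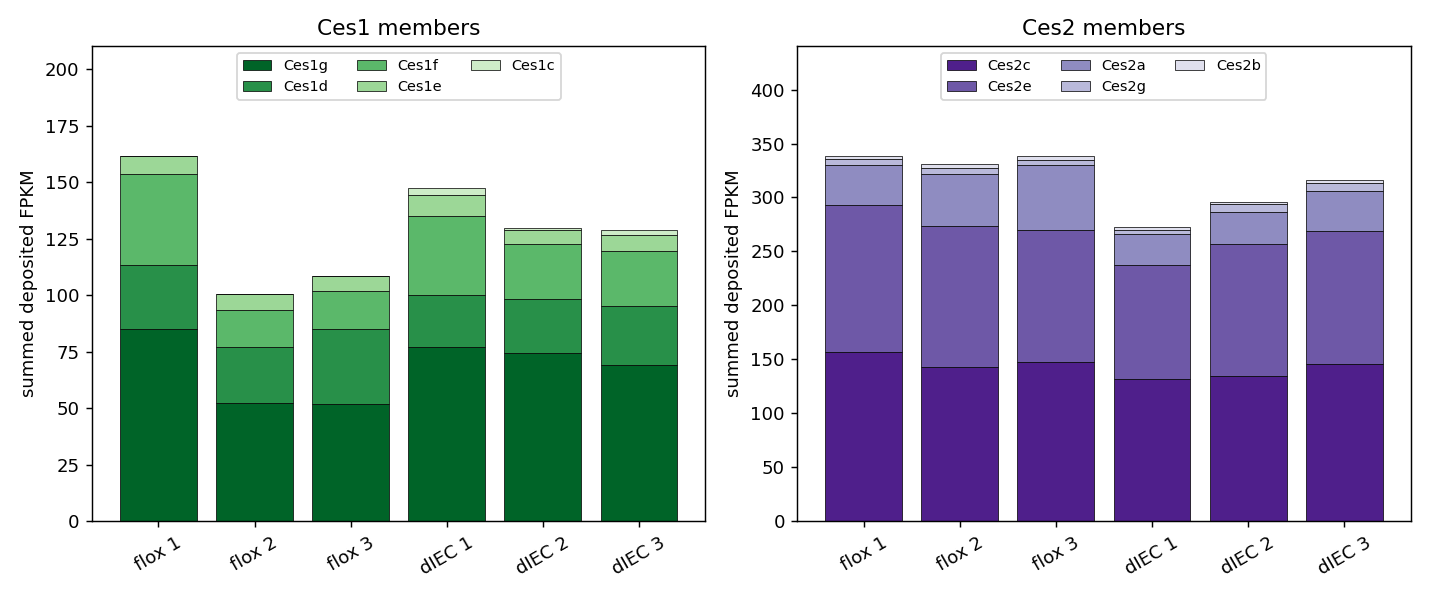
Deposited FPKM of the members, stacked per library (x axis, 3 Ube2f_flox and 3 Ube2f_dIEC mice), for Ces1 on the left and Ces2 on the right, with a y axis of its own for each family. Ces2c and Ces2e fill most of each Ces2 bar, and the Ces1 bar of Ube2f_flox replicate 1 (162 FPKM) stands above those of the other Ube2f_flox replicates (101 and 108 FPKM).

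Both families lie on chromosome 8 (GRCm38, GENCODE M21 positions looked up by gene ID). The Ces1 members run on the minus strand from Ces1c to Ces1g, 93099015 to 93337308, and the Ces2 members on the plus strand from Ces2a to Ces2g, 104734003 to 104969537. Pairs of Ces1 members had 74.5 to 81.6% identical bases over their aligned coding sequences, and pairs of Ces2 members 81.6 to 92.1%, the last for Ces2b and Ces2c. Between the families identity was 62.0 to 64.8%.

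Because reads from near-identical genes can be exchanged, each member's longest coding transcript was searched for windows that occur letter for letter in a transcript of another gene. At 150 bases, the read length, 8 of the 10 members had no such window. Ces2c shared 3.35% of its windows with the pseudogenes Ces2d-ps and Gm8798, and Ces2a shared 4.03% with the pseudogene Gm7208. At 75 bases the shares were 25.9% for Ces2c, 14.8% for Ces2a and 6.73% for Ces1c, the last mainly with its neighbour Ces1b, and at most 1.41% for the other 7 members. No pair of members shared a 150-base window. Exact matches are a lower limit, because an aligner also tolerates mismatches. The stretch below, 120 bases of coding sequence (bases 1503 to 1622 of Ces2c), is shown because it lies in the longest run common to Ces2c and Ces2d-ps (181 bases), and capitals mark bases that differ from Ces2c.
Ces2c: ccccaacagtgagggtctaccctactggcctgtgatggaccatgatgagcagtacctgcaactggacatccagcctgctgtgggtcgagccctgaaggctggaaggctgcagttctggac
Ces2d-ps: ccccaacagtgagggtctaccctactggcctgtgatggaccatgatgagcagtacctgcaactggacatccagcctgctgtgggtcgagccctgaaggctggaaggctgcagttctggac
Ces2e: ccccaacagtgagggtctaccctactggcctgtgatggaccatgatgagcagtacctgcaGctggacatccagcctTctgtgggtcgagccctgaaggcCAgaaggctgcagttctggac
Ces2a: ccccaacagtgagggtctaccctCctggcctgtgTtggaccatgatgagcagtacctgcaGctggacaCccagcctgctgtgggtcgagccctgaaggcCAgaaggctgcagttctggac
Ces2b: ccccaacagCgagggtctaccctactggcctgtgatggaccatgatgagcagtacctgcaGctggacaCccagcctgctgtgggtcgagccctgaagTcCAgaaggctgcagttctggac
Ces2g: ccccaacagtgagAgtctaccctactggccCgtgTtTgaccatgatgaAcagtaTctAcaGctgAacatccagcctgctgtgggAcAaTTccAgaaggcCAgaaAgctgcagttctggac
In this stretch Ces2e differed from Ces2c at 4 bases, Ces2a and Ces2b at 6 each and Ces2g at 17, and Ces2d-ps at 0.

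**Figure D2:**
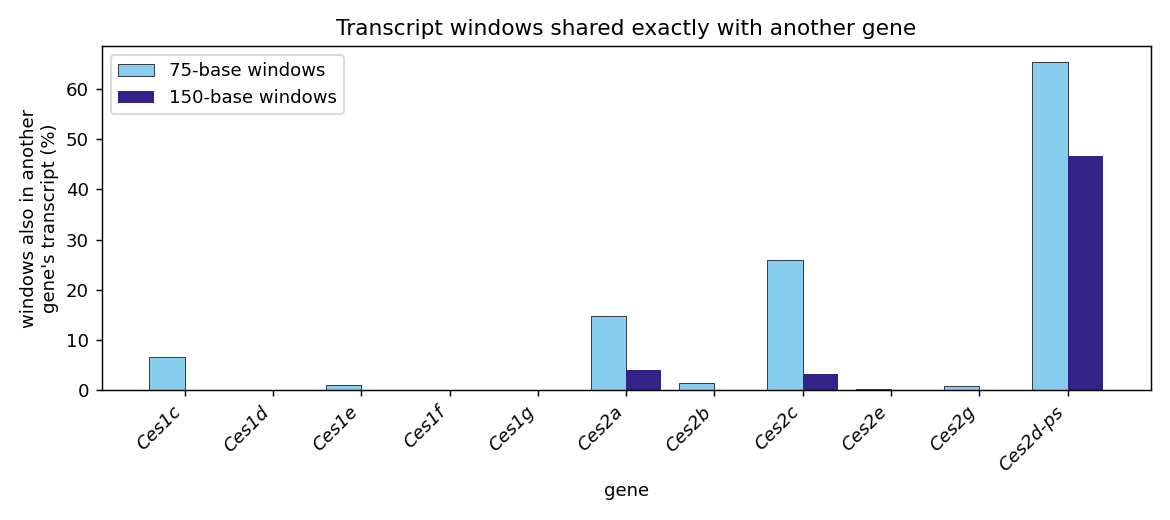
Percent of all windows of each transcript (y axis) that occur exactly in a transcript of another gene, for windows of 75 and 150 bases, by gene (x axis). Among the members only Ces2a (4.03%) and Ces2c (3.35%) have shared windows of 150 bases, while the pseudogene Ces2d-ps shares 46.7%.

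Between the genotypes, most Ces2 members lay lower in Ube2f_dIEC, Ces1c lay far higher, and most other Ces1 members overlapped. Over all 17900 genes tested, 8 passed the edgeR quasi-likelihood test at a Benjamini-Hochberg adjusted p of 0.05 (0.0447%, with 0.0223% higher and 0.0223% lower), and 0 of the 10 members were among them. At an unadjusted p under 0.05 stood 6 members, 1 higher and 5 lower, against 8.18% of all genes (4.15% higher, 4.03% lower). DESeq2 called 2 members, Ces1c higher and Ces2a lower, against 1.42% of all genes (0.665% higher, 0.76% lower). In CPM, 5 members lay below in all 3 Ube2f_dIEC libraries (6.9% of all genes) and 1 above (7.26%, or 14.2% in either direction). Since this contrast was in view when the members were chosen, nothing is read from these shares.

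**Figure D3:**
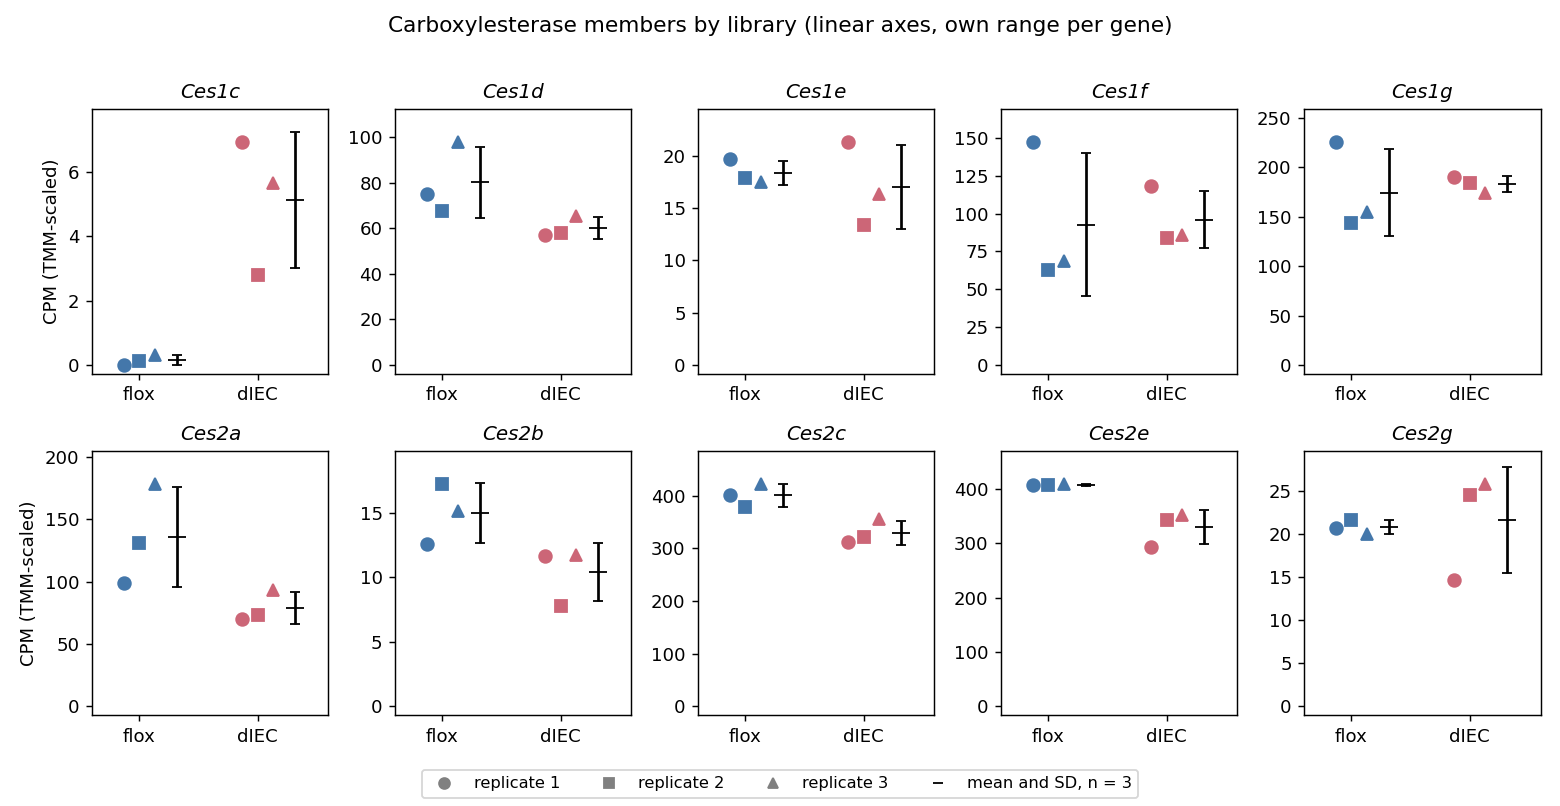
TMM-scaled CPM of each member (y axes, linear, own range per gene) in the Ube2f_flox and Ube2f_dIEC libraries, with 1 symbol per replicate number and the mean and SD (n = 3) beside them. Ces1c, Ces1d, Ces2a, Ces2b, Ces2c and Ces2e show no overlap between the genotypes, and the other 4 members overlap.

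Among the Ces2 members, Ces2a stood furthest apart. It was at 98.7, 131 and 178 CPM in Ube2f_flox and at 69.8, 73.2 and 93.3 CPM in Ube2f_dIEC, so that the highest Ube2f_dIEC library lay just below the lowest Ube2f_flox library. The log2 fold change was -0.79 (SE 0.21), and -0.71 (SE 0.24) without Ube2f_dIEC replicate 1. It was -0.55 (SE 0.16) without Ube2f_flox replicate 3 and -0.98 (SE 0.16) without Ube2f_flox replicate 1. Ces2a encodes an acylglycerol hydrolase of intestine and liver. Ces2b was at 12.6, 17.2 and 15.1 CPM in Ube2f_flox and 11.7, 7.80 and 11.8 CPM in Ube2f_dIEC (-0.52, SE 0.19, or -0.61 without Ube2f_dIEC replicate 1), with little room between the lowest Ube2f_flox and the highest Ube2f_dIEC library.

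The abundant members showed smaller differences with tighter replicates. Ces2c was at 401, 379 and 423 CPM in Ube2f_flox and at 313, 321 and 356 CPM in Ube2f_dIEC (-0.28, SE 0.08). Ces2e was at 407, 406 and 409 CPM against 294, 343 and 352 CPM (-0.31, SE 0.09). Every Ube2f_dIEC library lay below every Ube2f_flox library for both genes. Ces2g was the exception, at 20.7, 21.7 and 20.0 CPM against 14.6, 24.6 and 25.8 CPM (0.062, SE 0.20), where Ube2f_dIEC replicate 1 lay below and the other Ube2f_dIEC replicates above all Ube2f_flox libraries. Without Ube2f_dIEC replicate 1 the log2 fold change of Ces2g was 0.28 (SE 0.10), that of Ces2c -0.24 (SE 0.09) and that of Ces2e -0.23 (SE 0.08). Without Ube2f_dIEC replicate 2 or 3 that of Ces2g was -0.038 or -0.083.

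Counted as 1 gene, the Ces2 family was at 940, 955 and 1045 CPM in Ube2f_flox and 702, 769 and 839 CPM in Ube2f_dIEC, which gave -0.35 (SE 0.09) on the log2 scale. It was -0.29 (SE 0.09) without Ube2f_dIEC replicate 1 and -0.38 (SE 0.09) with the pseudogene copies Ces2d-ps, Gm8798, Gm6831 and Gm7208 added to the sum. Set against the absorptive colonocyte markers, the family amounted to 3.44, 3.71 and 4.13 CPM per 100 CPM of summed markers in Ube2f_flox and to 3.45, 3.11 and 3.88 in Ube2f_dIEC. These ranges overlapped, and this ratio was chosen after the values had been seen. The summed FPKM of the Ces2 family did not overlap between the genotypes (331 to 339 in Ube2f_flox, 273 to 316 in Ube2f_dIEC). For the single members, the separation depends on the scaling. With library totals in place of TMM, the median of all genes moved from -0.00018 to 0.15, 0 of the 10 members lay below in all 3 Ube2f_dIEC libraries (2.2% of all genes), and the log2 fold changes of Ces2a and of the Ces2 sum were -0.62 and -0.19. In the deposited FPKM, Ces2a and Ces2b stayed below in all 3 Ube2f_dIEC libraries (2.12% of all genes), while Ces1d, Ces2c and Ces2e overlapped. The lowest Ube2f_flox and highest Ube2f_dIEC values were close, 37.6 and 37.3 FPKM for Ces2a and 3.32 and 3.31 FPKM for Ces2b.

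The pseudogene Ces2d-ps, which lies between Ces2c and Ces2e and is no member, differed more than Ces2c. It was at 93.5, 102 and 86.6 CPM in Ube2f_flox and at 57.0, 56.5 and 43.0 CPM in Ube2f_dIEC (log2 fold change -0.85, SE 0.12). It did not pass over all genes (edgeR quasi-likelihood, Benjamini-Hochberg adjusted p = 0.0958, from 9.99e-08 with DESeq2 to 0.278 over the alternatives). Its levels are uncertain, since 46.7% of its 150-base windows occur in Gm8798 or Ces2c. Gm8798 was at 7.23, 3.55 and 7.72 CPM against 2.68, 6.34 and 6.94 CPM, with overlap. With Ces2c, Ces2d-ps and Gm8798 counted as 1 gene the log2 fold change was -0.37 (SE 0.07). Gm7208, which shares a run of 220 bases with Ces2a, had 7 counts in 1 library and 0 in the other 5.

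Promoters of Ces2a and Ces2c are printed as an example of members that varied together over the libraries (Pearson's r of log2 CPM 0.89 over 6 libraries). They are RefSeq sequences of GRCm38.p6, 250 bases before to 50 after the start, plus strand, and 7 of the 10 members had an entry. Capitals mark ATTGG on either strand (CCAAT on the other), the core of the CCAAT box. Ces2a is at chr8:104733753-104734052 and Ces2c at chr8:104846818-104847117.
Ces2a: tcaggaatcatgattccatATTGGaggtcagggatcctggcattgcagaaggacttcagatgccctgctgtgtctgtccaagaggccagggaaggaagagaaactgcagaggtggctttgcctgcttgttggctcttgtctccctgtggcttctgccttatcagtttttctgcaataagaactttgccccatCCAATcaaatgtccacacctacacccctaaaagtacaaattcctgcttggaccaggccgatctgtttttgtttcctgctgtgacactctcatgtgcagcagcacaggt
Ces2c: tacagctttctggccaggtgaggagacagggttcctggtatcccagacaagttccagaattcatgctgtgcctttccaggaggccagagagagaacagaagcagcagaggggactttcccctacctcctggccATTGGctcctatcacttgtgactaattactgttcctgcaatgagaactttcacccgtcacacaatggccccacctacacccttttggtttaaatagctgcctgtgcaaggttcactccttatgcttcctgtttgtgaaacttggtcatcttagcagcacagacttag
The motif occurred in 37.4% of all 32851 promoter entries and in 5 of the 7 members with an entry. Ces2e, which varied more closely with Ces2c (r = 0.92) than Ces2a did, had an entry without the motif. The nuclear receptor half-site AGGTCA, searched on both strands, was in Ces2a alone of these 7 and in 16.3% of all entries. The Ces2a and Ces2c promoters were 68.7% identical over 291 aligned bases.

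Ces1c differed most of all members. It had 0, 8 and 18 counts in Ube2f_flox and 412, 215 and 451 counts in Ube2f_dIEC, or 0, 0.117 and 0.317 CPM against 6.91, 2.81 and 5.65 CPM. Ube2f_flox replicate 1 was at 0, which allows up to 0.0387 CPM by library total. The groups were far apart under TMM, under library totals and in the deposited FPKM. The fitted log2 fold change was 5.21 (SE 0.86), and 4.93 (SE 0.98) without Ube2f_dIEC replicate 1. It was 6.47 without Ube2f_flox replicate 3, 4.57 without Ube2f_flox replicate 1, 6.37 with limma-voom and 1.52 on log2(FPKM + 1). Its size therefore depends on the setting and on the prior count, since 1 library is at 0. Of 6 hepatocyte markers, Alb and Ttr were measured. Their summed level was 9.93 to 22.0 CPM in Ube2f_flox and 6.59 to 10.2 CPM in Ube2f_dIEC. Alb was at most 0.635 CPM in any library, so the sum was almost all Ttr. The part of RNA from other cells in the Ces1c level was not tested. Serpina1a, Fgb, Cyp2e1 and Tf were not analysed here.

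The gene next to Ces1c, Ces1b, lay near the floor but higher on average in Ube2f_dIEC. It had 38, 10 and 27 counts in Ube2f_flox and 85, 30 and 92 counts in Ube2f_dIEC (log2 fold change 1.40, SE 0.63), with overlap between the groups in CPM and an adjusted p of 0.624 by edgeR. Ces1b and Ces1c are 91.2% identical over their coding bases and share 4.85% of the 75-base windows of Ces1c, so counts may pass between them. Their promoters, printed for that likeness, were 92.7% identical over 273 aligned bases. Capitals mark the longest run they share, 58 bases (minus strand, GRCm38.p6, RefSeq; Ces1b at chr8:93079891-93080190 and Ces1c at chr8:93131234-93131533).
Ces1b: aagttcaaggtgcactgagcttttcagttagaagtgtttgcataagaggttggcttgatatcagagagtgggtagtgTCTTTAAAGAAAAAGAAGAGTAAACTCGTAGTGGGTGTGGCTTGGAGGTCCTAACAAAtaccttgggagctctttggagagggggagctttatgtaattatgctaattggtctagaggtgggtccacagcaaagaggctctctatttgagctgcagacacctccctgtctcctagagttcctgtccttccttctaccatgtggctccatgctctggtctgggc
Ces1c: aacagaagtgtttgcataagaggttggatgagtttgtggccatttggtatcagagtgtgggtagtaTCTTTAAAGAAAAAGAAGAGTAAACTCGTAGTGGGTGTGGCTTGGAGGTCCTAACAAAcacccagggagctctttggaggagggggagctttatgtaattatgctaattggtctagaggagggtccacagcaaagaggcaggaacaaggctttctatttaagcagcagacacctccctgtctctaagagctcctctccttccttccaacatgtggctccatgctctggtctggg
Within the run lies GGGTGTGGC, a GC-box-like motif searched after these sequences had been seen. On both strands it was in Ces1b and Ces1c alone among the 15 carboxylesterases with an entry and in 1.35% of all entries. Among the other pairs of Ces1 or of Ces2 genes with at least 100 aligned bases the highest identity was 75%, for Ces2c and Ces2g.

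**Figure D4:**
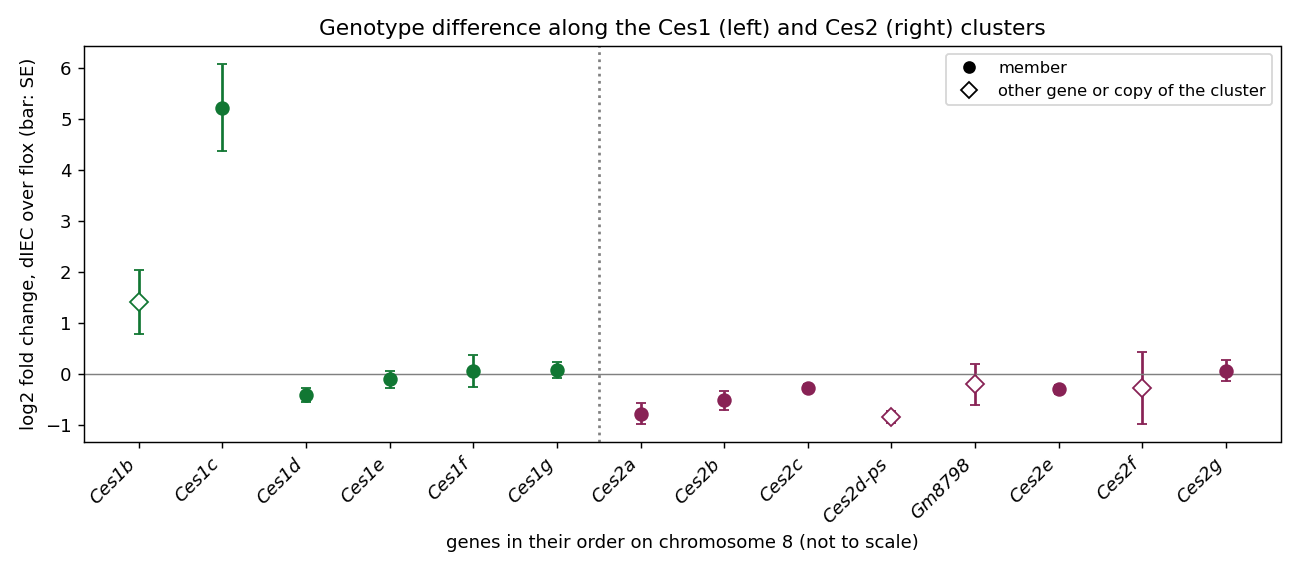
Log2 fold change of Ube2f_dIEC over Ube2f_flox with its SE (y axis) for the carboxylesterase genes and copies with a mean of at least 0.5 CPM, in their order on chromosome 8 (x axis, not to scale). Ces1c (5.21) and Ces1b (1.40) stand above 0 at the start of the Ces1 cluster, and Ces2a (-0.79) and Ces2d-ps (-0.85) are the lowest of the Ces2 cluster.

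The other Ces1 members did not follow Ces1c. Ces1d lay lower in Ube2f_dIEC, at 75.2, 67.6 and 97.6 CPM against 57.0, 57.8 and 65.5 CPM (log2 fold change -0.41, SE 0.14), a separation present with TMM alone. The log2 fold change of Ces1d was -0.25 (SE 0.10) without Ube2f_flox replicate 3 and -0.38 (SE 0.16) without Ube2f_dIEC replicate 1. Ces1f was at 147, 62.5 and 68.7 CPM in Ube2f_flox and 118, 84.2 and 86.0 CPM in Ube2f_dIEC (0.050, SE 0.31). Ces1g was at 225, 144 and 154 CPM against 189.8, 185 and 174 CPM (0.069, SE 0.16). In both genes Ube2f_flox replicate 1 was the highest library and the other Ube2f_flox replicates the lowest. Without that replicate the log2 fold changes were 0.55 (SE 0.15) for Ces1f and 0.29 (SE 0.072) for Ces1g. Ces1e was at 19.7, 17.9 and 17.5 CPM against 21.3, 13.4 and 16.4 CPM (-0.11, SE 0.17), with overlap. Without Ube2f_dIEC replicate 1 the log2 fold changes were -0.30 (SE 0.14) for Ces1e, -0.13 (SE 0.35) for Ces1f and 0.041 (SE 0.19) for Ces1g, and without Ube2f_dIEC replicate 2 that of Ces1e was 0.035. As 1 gene, the Ces1 family was at 467, 292 and 339 CPM against 393, 343 and 348 CPM (-0.018, SE 0.16, or 0.13 with library totals in place of TMM and -0.083 without Ube2f_dIEC replicate 1).

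Across the 6 libraries the members fell into sets that cut across the families. Ces1f and Ces1g varied together (r = 0.96), although their coding sequences were only 74.6% identical and shared no 75-base window. Ces1d varied with Ces2c (r = 0.93) and Ces2a (r = 0.90), and Ces2c with Ces2e (r = 0.92). Ces1g and Ces2a ran against each other (r = -0.62). These are descriptions over 6 libraries that share the genotype difference and the scaling. Among 8854 other genes of at least 10 CPM, the 5 most like Ces1g were Phb2, Fh1, Mrpl16, Slc16a1 and Thumpd3 (r of 0.993 to 0.997), and those most like Ces2c were Rps19, Khsrp, Rpl23, Xpr1 and Rpl31 (r of 0.986 to 0.994).

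**Figure D5:**
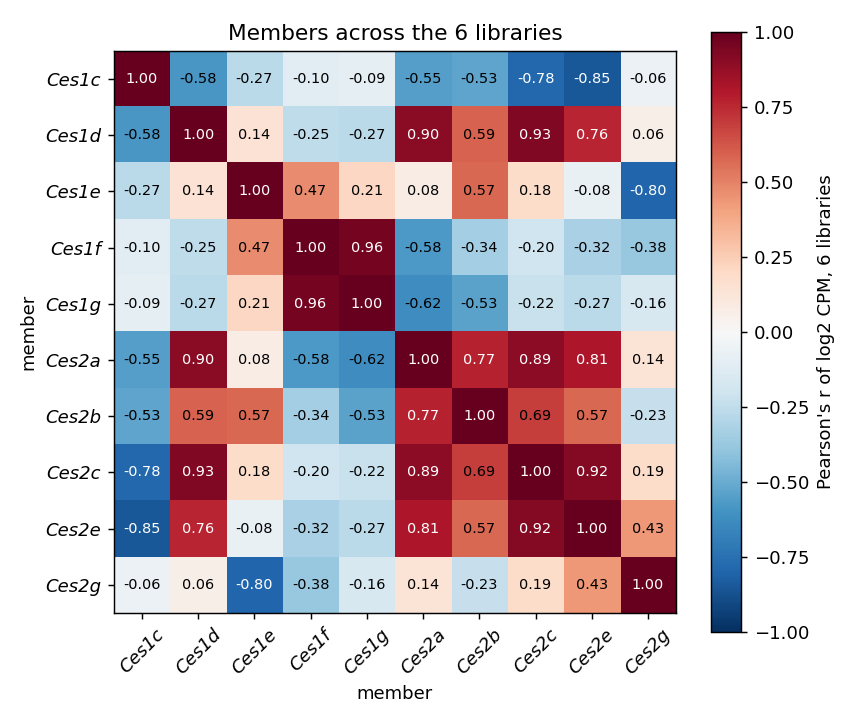
Pearson's r of log2 CPM between each pair of members (both axes) over the 6 libraries, from -1 to 1. Ces1f with Ces1g (0.96) and Ces1d with Ces2c (0.93) are the highest pairs, and Ces1c with Ces2e (-0.85) is the lowest.

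The remaining carboxylesterases were close to absent. Ces1h, Ces2h, Ces3a and Ces3b had at most 25 counts in any library, and Ces2f had 18 to 155 counts, with overlap between the groups. Ces1a, Ces4a and Ces5a were not analysed here. Genes that flank the clusters were set beside the members. Around the Ces2 members, 41 genes within 1 Mb were neither carboxylesterases nor their copies and had group means summing to at least 2 CPM. Of these, 2 lay below and 5 above in all 3 Ube2f_dIEC libraries, against 6.9% and 7.26% of all genes. The median log2 fold change of the 41 genes was 0.019. Of 11 such genes around the Ces1 members, 0 lay below and 3 above, and their median was 0.0068. Among the 11, 1 passed, the metallothionein Mt1 (2.80, SE 0.29), against 0.0447% of all genes. The set of flanking genes was chosen after the values had been seen.

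Other ester and lipid hydrolases, neutral lipid and retinoid genes and the regulators of carboxylesterases held 0 genes called by edgeR among the 53 tested, the other carboxylesterases included. At an unadjusted p under 0.05 stood 9 of them (17%), 1 higher and 8 lower, beside 8.18% of all genes. DESeq2 called Ces2d-ps and Rbp2, both lower, beside 1.42% of all genes. The 20 measured hydrolases had a median log2 fold change of -0.070, beside -0.00018 for all genes. The most abundant were Pon2, a lactonase of the paraoxonase family (169 ± 17.01 against 156 ± 9.01 CPM), Pnpla2, the adipose triglyceride lipase (143 ± 1.05 against 145 ± 9.22 CPM), Lypla1, an acyl-protein thioesterase (122 ± 7.42 against 116 ± 7.32 CPM), and Esd, esterase D (105 ± 11.8 against 105 ± 3.38 CPM). In each the genotypes overlapped. Of the 12 lipid and retinoid genes, 9 were negative (median -0.19). The fatty acid binding protein Fabp2 was at 293 ± 26.7 against 270 ± 71.2 CPM, Apob, the structural protein of chylomicrons, at 194 ± 47.5 against 142 ± 44.2 CPM, and the acyltransferase Dgat2 at 108 ± 14.7 against 78.1 ± 26.5 CPM, all overlapping. The lipid droplet protein Plin2 was at 140 ± 2.90 against 128 ± 7.70 CPM, without overlap, but its log2 fold change of -0.13 was 0.021 with library totals. Rbp2, a cellular retinol binding protein, was at 12.9 ± 4.59 against 5.51 ± 1.59 CPM, without overlap (-1.22, SE 0.30). Among 16 regulators (median -0.049), Hnf4a, a nuclear receptor of enterocytes and hepatocytes, was at 975 ± 57.3 against 927 ± 89.0 CPM, the oxidative stress factor Nfe2l2 at 371 ± 36.9 against 345 ± 25.0 CPM and the intestinal homeobox factor Cdx2 at 258 ± 41.5 against 263 ± 12.01 CPM, all overlapping. Rxra, the partner receptor of the xenobiotic receptors, was at 164 ± 8.58 against 138 ± 9.65 CPM, without overlap (log2 fold change -0.24, SE 0.08, adjusted p = 0.481 by edgeR). With library totals the log2 fold change of Rxra was -0.090 (SE 0.10), and in the deposited FPKM its genotypes overlapped. The xenobiotic receptors themselves, Nr1i2 (log2 fold change -0.025, SE 0.10) and Nr1i3 (0.10, SE 0.23), overlapped between the genotypes in CPM.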

How the data were processed

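Polyadenylated RNA of colon epithelial cells was sequenced from 3 Ube2f_flox and 3 Ube2f_dIEC mice. The authors deposited raw read counts (whole numbers) and FPKM values for each gene in each library, per the file headers. The build mm10 and the tools HISAT2 2.2.1, cutadapt 1.9, StringTie 2.1.6, edgeR and DESeq2 are named, per the submitters' processing notes. Not given in the sources used here are how reads with several matches were counted and whether strand was kept. The table held 0 unused sample columns. Counts of 28500 genes were filtered with filterByExpr (17900 kept), normalized with TMM factors and compared by edgeR's quasi-likelihood test (R 4.3.3, edgeR 4.0.16; limma 3.58.1 for the alternatives), two-sided, genotype as the only term, with Benjamini-Hochberg adjustment over all genes at 0.05. SE is the log2 fold change over the square root of F. DESeq2 1.42.0 ran on the same filtered genes. Limma on FPKM used log2(value + 0.1), or + 1. Family sums replaced the 5 members of a family by 1 summed gene. The tests were checked on simulated data. Floors cover counting error only. Each mouse is labelled separately.

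The members and lists were chosen with earlier results of these data known. Named genes are the members, Ube2f, the other carboxylesterases, the 4 genes of highest CPM and any called gene of each related list, and the 5 genes most correlated with the leading member of each family. Marker genes are given as sums, with single values for Alb alone. Xist, Mt1, Nr1i2, Nr1i3, the pseudogene copies, the sums that include them and the ratio to absorptive markers were chosen after values were seen. Positions and transcripts are from GENCODE M21, since coordinates in the table mostly differ from it.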

Additional observations from a re-analysis of the deposited data

How the results depend on the processing

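Over the 28 genes followed one by one, 330 of 383 values under an alternative kept their direction and their side of the threshold, 46 changed direction and 7 passed the threshold where the value reported had not. The calls over all genes, 8 as reported, were 18 with library totals (13 higher, 5 lower), 255 with DESeq2, 5 with limma-voom and 0 to 90 when 1 library was left out, 90 without Ube2f_flox replicate 1, 1 without Ube2f_dIEC replicate 2 and 0 without Ube2f_flox replicate 2 or Ube2f_dIEC replicate 1 or 3. Members called were 2 with DESeq2 and 0 to 1 with 1 library left out (Ces1c without Ube2f_flox replicate 1), and DESeq2 called 2 genes of the related lists. The Ces2 sum (-0.35) kept its direction throughout and passed with DESeq2 alone (-0.35, Benjamini-Hochberg adjusted p = 0.0272). The Ces1 sum (-0.018) became 0.13 with library totals, 0.0077 with limma-voom and -0.16 to 0.19 with 1 library left out. The cause was not tested. Directions changed with library totals for Nfe2l2 (0.047), Hnf4a (0.079), Esd (0.15), Fabp2 (0.040), Lypla1 (0.079), Plin2 (0.021), Pon2 (0.031) and Ces1e (0.043), with limma-voom for Esd (0.00048) and Ces2f (0.11), with limma on FPKM plus 0.1 for Nfe2l2 (0.062), Hnf4a (0.087), Esd (0.16), Fabp2 (0.012), Lypla1 (0.088), Plin2 (0.027), Pon2 (0.047), Ces1e (0.029) and Ces2f (0.081), and with FPKM plus 1 for Nfe2l2 (0.062), Hnf4a (0.086), Esd (0.16), Fabp2 (0.012), Lypla1 (0.083), Plin2 (0.026), Pon2 (0.044) and Ces1e (0.028). With 1 library left out they changed for Cdx2 (-0.073 to 0.16), Ces1e (-0.30 to 0.035), Ces1f (-0.17 to 0.55), Ces1g (-0.054 to 0.29), Ces2f (-0.71 to 0.97), Ces2g (-0.083 to 0.28), Esd (-0.071 to 0.086), Fabp2 (-0.30 to 0.074), Hnf4a (-0.13 to 0.0029) and Pnpla2 (-0.018 to 0.064). The labels do not say whether replicate numbers pair the libraries. Same-numbered deviations correlated at 0.081, -0.015 and 0.083, and differently numbered ones at -0.11 to 0.037, which does not settle a pairing. With the replicate number as a block, 10 genes and 0 members were called, and the direction changed for the Ces1 sum (0.0077) and for Esd (0.0025) and Ces2f (0.15). Ces1c, Ces1b and the copies with few counts are limited by depth.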
